A study of Mus musculus with 12 samples.

Results

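The genes of sterol and fatty acid synthesis were followed in primary mouse microglia, the resident macrophages of the brain, in the presence and absence of amyloid peptide and of AE1-329, which activates EP4, a receptor for prostaglandin E2. A list of 32 genes was used, set by place in the pathway and drawn up with earlier results of these data known. Of these, 31 were matched to a probe set that carries 1 gene symbol in the platform annotation, out of 19938 genes measured in that way, and Acat2 was not analysed here. Cells came from the brains of C57BL/6J pups on postnatal day 7, were picked with CD11b magnetic beads and were cultured for 3 days in serum. They then received, for 6 h, either oligomeric Aβ42 at 10 µM or its DMSO vehicle (0.4%), combined with either AE1-329 at 100 nM or its ethanol vehicle (0.001%). This gave 4 groups, namely both vehicles, AE1-329 alone, Aβ42 alone and Aβ42 with AE1-329, each with 3 arrays of the Affymetrix Mouse Gene 1.0 ST type. The design text states that 3 litters of pups were the replicates of each treatment, so the cells of a replicate came from a litter and not from 1 pup, and the replicate number was read as the litter.

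Cholesterol is built from acetyl-CoA through mevalonate and farnesyl pyrophosphate to squalene, which is then closed to lanosterol and trimmed to cholesterol. Fatty acids are built from the same acetyl-CoA by acetyl-CoA carboxylase and fatty acid synthase and are then lengthened and desaturated. Both branches are switched on by the SREBP transcription factors, which SCAP carries from the endoplasmic reticulum to the Golgi for cleavage when sterols are low and which the INSIG proteins hold back when sterols are high. In macrophages these genes are known to respond to inflammatory stimuli as well as to the uptake of lipid.

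The stretches of promoter below belong to genes of the pathway that rose when Aβ42 was added to AE1-329 in the results that follow. These genes did not move alike in the other comparisons. Of the stretches, 3 hold a match to part of the sterol regulatory element bound by SREBPs. RefSeq promoter windows (GRCm38.p6, from 250 bases before the annotated start to 50 bases after it) were found for 24 of the 31 genes. Each line gives the 150 bases from position -200 to -51 before the start, 5′ to 3′ on the strand of the gene, with capitals for the letters TCACNCCA of a sterol element, for CCAAT (the box bound by NF-Y) and for the E-box CACGTG, searched on both strands.
Hmgcs1: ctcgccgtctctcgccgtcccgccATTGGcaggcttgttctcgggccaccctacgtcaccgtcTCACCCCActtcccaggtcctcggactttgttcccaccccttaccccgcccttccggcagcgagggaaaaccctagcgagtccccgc
Msmo1: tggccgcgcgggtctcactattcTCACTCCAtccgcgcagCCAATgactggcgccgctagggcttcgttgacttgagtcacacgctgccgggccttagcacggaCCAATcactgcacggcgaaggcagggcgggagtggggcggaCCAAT
Srebf2: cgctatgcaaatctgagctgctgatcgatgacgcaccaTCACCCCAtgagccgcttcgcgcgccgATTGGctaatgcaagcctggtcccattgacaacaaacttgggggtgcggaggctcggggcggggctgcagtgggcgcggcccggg
Hsd17b7: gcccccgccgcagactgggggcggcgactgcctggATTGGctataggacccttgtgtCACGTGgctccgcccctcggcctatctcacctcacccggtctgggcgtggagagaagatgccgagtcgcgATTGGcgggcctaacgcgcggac
Mvd: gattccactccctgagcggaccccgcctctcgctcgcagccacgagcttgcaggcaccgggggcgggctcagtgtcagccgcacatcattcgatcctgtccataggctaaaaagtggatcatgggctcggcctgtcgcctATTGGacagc
The Hmgcs1 stretch lies at chr13:119690151-119690300 on the plus strand. The Msmo1 stretch lies at chr8:64733629-64733778 on the minus strand. The Srebf2 stretch lies at chr15:82147069-82147218 on the plus strand. The Hsd17b7 stretch lies at chr1:169969256-169969405 on the minus strand. The Mvd stretch lies at chr8:122443473-122443622 on the minus strand. TCACNCCA occurred in the windows of Hmgcs1, Msmo1 and Srebf2, which is 3 of 24 genes (12.5%) against 4.97% of the 27025 genes with a window. CCAAT occurred in 20 of the 24 (83.3%) against 41.1%, and GGGCGG, the GC box bound by SP1, also in 20 of 24 (83.3%) against 38.2%. The E-box occurred in 5 of the 24, namely Dhcr7, Hsd17b7, Insig1, Sc5d and Scap, against 8.09% of all genes. These shares are of all genes with a window, whatever their expression, whereas the listed genes all lay above the median expression level. Genes of similar level were not compared. The capitalised motifs do not overlap each other in these stretches, and a match is a description of the letters, not of binding.

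Expression is given on the log2 scale. A change is the difference of 2 group means on that scale, ± its standard error from a limma fit to the 12 arrays, with p adjusted over all 19938 genes and a threshold of 0.05. The array medians lay between 6.97 and 7.05, and precision is set by there being 3 arrays a group. Of the 11 measured microglial markers 10 lay above the median gene, and Siglech lay below it. Their array means were 10.42 to 10.44 with vehicle, 10.28 to 10.34 with AE1-329, 10.24 to 10.31 with Aβ42 and 10.11 to 10.17 with both, so that the arrays with both agents lay below all others. With Aβ42 alone 2 of the 11 rose and 4 fell (54.5% called, against 25.6% of all genes). Among those that fell was P2ry12, a receptor of resting microglia, from a mean of 9.177 to 7.743. AE1-329 alone raised 1 and lowered 3 (36.4% called, against 10.2% of all genes), and Cx3cr1 differed most, from a mean of 11.839 to 11.02. AE1-329 added to Aβ42 raised 1 and lowered 2 (27.3%, against 11%). Aβ42 added to AE1-329 raised 1 and lowered 3 (36.4%, against 22%). Markers of oligodendrocyte lineage cells, which make sterols for myelin, averaged 7.35 to 7.54 per array with vehicle, 7.32 to 7.42 with AE1-329, 7.32 to 7.38 with Aβ42 and 7.23 to 7.32 with both. Of these 9 markers 4 lay above the median gene, while Mog, Mobp and Pdgfra lay below it in every group. With Aβ42 alone 2 of the 9 fell, Cnp from a mean of 9.598 to 9.283 and Mbp from 8.953 to 8.678. Both also fell when Aβ42 was added to AE1-329, to 9.174 for Cnp and 8.681 for Mbp. In each of these 2 comparisons 22.2% of the 9 were called, where 14.8% and 12.2% of all genes were lower. Dhcr7 and Fads1 fell in both comparisons, and Scd2 and Elovl6 fell with Aβ42 alone only. When AE1-329 was added to Aβ42, 1 of the 9 markers fell (11.1%, where 5.04% of all genes were lower). Cspg4, which is also on the endothelial and mural list, differed most there, from a mean of 7.701 to 7.381. Mbp went from 8.678 to 8.681 and Cnp from 9.283 to 9.174. In that comparison Dhcr7 did not pass and Fads1 rose. Array means were 7.03 to 7.34 for the 8 astrocyte markers and 6.52 to 6.78 for the 8 neuron markers. They were 7.05 to 7.39 for the 8 endothelial and mural markers and 7.44 to 7.61 for the 6 monocyte and border macrophage markers. Of those 6, 3 lay above the median gene, with Mrc1 at 10.778 and Pf4 at 10.011, and Ccr2 averaged 4.897. In the comparisons, in the order given for microglia, 12.5%, 37.5%, 37.5% and 25% of the endothelial and mural markers were called. For the monocyte and border macrophage markers the shares were 0%, 0%, 16.7% and 33.3%, and for all genes 25.6%, 10.2%, 11% and 22%. At most 12.5% of the astrocyte markers and 0% of the neuron markers were called. The part of such cells in the results was not tested, and in these bulk samples fewer cells of a type and less RNA per cell cannot be told apart.

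Vehicle arrays varied more among themselves than the others. The median standard deviation of the 31 genes was 0.154 with vehicle, against 0.0516 to 0.0848 in the other groups, and over all genes it was 0.109 against 0.0628 to 0.066. Vehicle replicate 1 was the lowest vehicle array for 18 of the 31 genes and the highest for 11. Over all genes it was the lowest for 36.3% and the highest for 31%. Some arrays of other groups were more one-sided for the 31 genes. Replicate 1 of the agonist alone was the highest of its group for 21, where it was for 31.5% of all genes. Replicate 3 of the amyloid peptide alone was the lowest for 21, where it was for 30% of all genes. Among the genes for which vehicle replicate 1 stood apart were Idi1, Cyp51, Dhcr7, Srebf1, Tm7sf2 and Stard4. The counts without vehicle replicate 1 are given with each comparison.

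**Figure D1:**
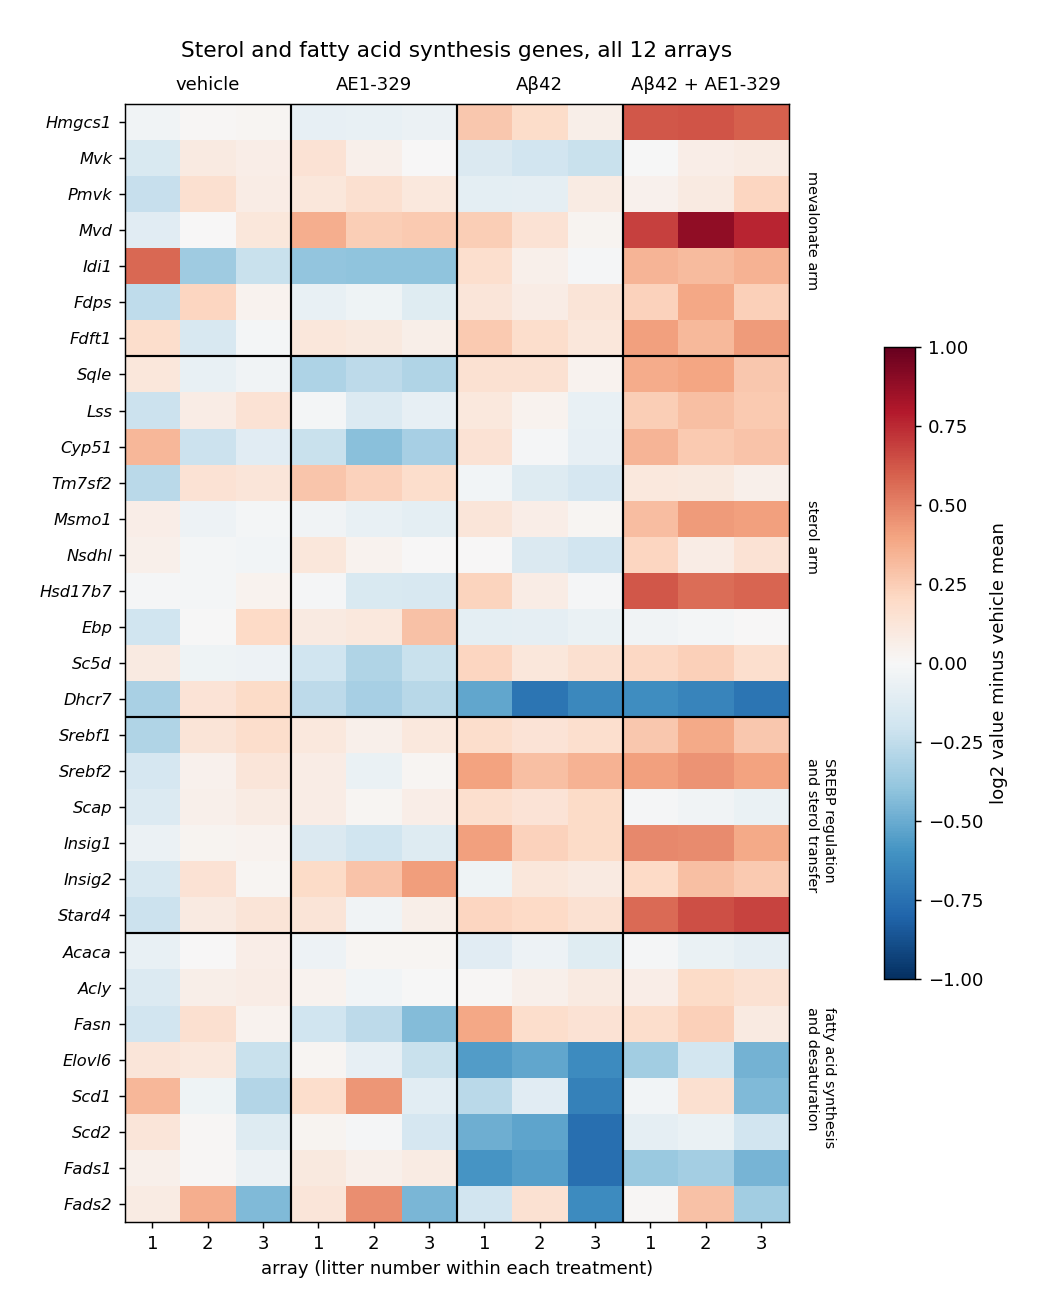
Each row is 1 of the 31 genes, grouped by role, and each column is 1 of the 12 arrays. Colour gives the log2 value minus the vehicle mean of that gene, from -1 (blue) to 1 (red). The arrays of Aβ42 with AE1-329 are red for Hmgcs1, Mvd, Hsd17b7 and Stard4, and both groups with Aβ42 are blue for Dhcr7 and Fads1.

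The group with both agents held the highest of the 4 group means for 17 of the 31 genes, and for 12 of the 17 genes of cholesterol synthesis proper, where 17% of all genes had their highest mean in that group. Aβ42 alone held the highest mean for 2 of the 31 (Scap and Fasn), where 37.5% of all genes did. The comparisons below share groups with each other, so that their values are set side by side and not treated as independent.

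The first comparison asked what Aβ42 did without the agonist. Of the 31 genes 3 rose, 4 fell and 24 did not pass, so that 22.6% were called where 25.6% of all genes were, with 10.7% higher and 14.8% lower. Their median change was 0.05, beside 0.017 for all genes. The share called was thus near that of all genes. Those that fell were 1 terminal enzyme of the cholesterol pathway and 3 genes of fatty acid lengthening and desaturation.

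Dhcr7 encodes the reductase that turns 7-dehydrocholesterol into cholesterol. It read 9.42, 9.88 and 9.93 with vehicle and 9.22, 9.01 and 9.10 with Aβ42. The groups did not overlap, as for 10 of the 31 genes here and 35% of all genes, and the change was -0.63 ± 0.11 (1.55-fold lower, adjusted p = 0.000636). It was lower in all 3 litters, by 0.20, 0.86 and 0.84, so that litter 1 showed the smallest difference. Hmgcs1, the cytosolic HMG-CoA synthase, read 10.34, 10.38 and 10.39 with vehicle and 10.64, 10.55 and 10.43 with Aβ42. That rise of 0.17 ± 0.06 (adjusted p = 0.0390) was small, and the call ended in 14 of 19 alternatives (adjusted p = 0.0522 to 0.183). Among these was leaving out any array except Aβ42 replicate 3. Sc5d, a sterol desaturase, lay just outside the threshold (0.17 ± 0.06, adjusted p = 0.0501) and passed with the litter as a block (0.0342).

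Among the genes of SREBP control 2 of 6 rose. Srebf2, which encodes the SREBP of sterol synthesis, read 10.19, 10.40 and 10.48 with vehicle and 10.76, 10.66 and 10.70 with Aβ42. The groups did not overlap (0.35 ± 0.07, adjusted p = 0.00213). Insig1, whose product holds SREBPs back and which is itself an SREBP target, went from 11.03, 11.12 and 11.13 to 11.50, 11.32 and 11.28 (0.28 ± 0.06, adjusted p = 0.00502). Srebf1, the SREBP gene of fatty acid synthesis, differed by 0.16 ± 0.10 (adjusted p = 0.303). Scap (0.16 ± 0.06, adjusted p = 0.0623), Stard4, a sterol carrier (0.19 ± 0.08, adjusted p = 0.117), and Insig2 (0.05 ± 0.08) did not pass either.

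The remaining sterol genes lay between -0.19 (Mvk, mevalonate kinase, adjusted p = 0.0624) and 0.18 (Fdft1, squalene synthase, adjusted p = 0.102). For Idi1, the isomerase of isopentenyl pyrophosphate, the vehicle arrays read 10.57, 9.64 and 9.78 and the Aβ42 arrays 10.16, 10.05 and 9.98. Replicate 1 was the highest vehicle array by a wide margin, and Idi1 was higher with Aβ42 in litters 2 and 3 only. Without vehicle replicate 1 the count of called genes went from 7 to 12, with 6 higher and 6 lower. Idi1 (0.36, adjusted p = 0.000914), Fdft1 (0.27, 0.00558), Sqle (0.17, 0.0458) and Sc5d (0.21, 0.00921) then passed as higher, Mvk (-0.26, 0.00334) and Tm7sf2 (-0.24, 0.00532) passed as lower, and Hmgcs1 no longer passed (0.0726).

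The second comparison asked what AE1-329 did without Aβ42. Of the 31 genes 2 rose, 2 fell and 27 did not pass (12.9% called, against 10.2% of all genes, with 4.71% higher and 5.45% lower). The median change was 0.004 for these genes and -0.014 for all genes. Sqle, squalene epoxidase, a rate-limiting enzyme of the sterol branch, read 10.01, 9.83 and 9.87 with vehicle and 9.59, 9.64 and 9.60 with AE1-329. The groups did not overlap, as for 11 of the 31 genes here and 22.9% of all genes (-0.29 ± 0.06, adjusted p = 0.00866). Sc5d fell by 0.24 ± 0.06 (adjusted p = 0.0159), from 10.48, 10.35 and 10.34 to 10.19, 10.09 and 10.17.

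Mvd, mevalonate diphosphate decarboxylase, rose from 8.73, 8.85 and 8.96 to 9.21, 9.09 and 9.10 (0.29 ± 0.08, adjusted p = 0.0296). Insig2, the second INSIG gene, rose from 9.41, 9.71 and 9.59 to 9.76, 9.86 and 9.99 (0.30 ± 0.08, adjusted p = 0.0344). The calls of Mvd and Insig2 each ended in 7 of 19 alternatives. For Mvd these included leaving out any 1 array of AE1-329 alone or vehicle replicates 1 or 2 (adjusted p = 0.0590 to 0.120). For Insig2 they included leaving out replicates 2 or 3 of AE1-329 alone, replicate 3 of the combined treatment or vehicle replicates 1 or 3 (0.0504 to 0.149). Without vehicle replicate 1 none of the 31 genes rose, and Sqle, Sc5d, Dhcr7 and Fasn fell. The call of Sc5d ended without replicate 2 of AE1-329 alone (0.0799). With only the 6 arrays of the 2 groups in the fit, none of the 31 genes passed, and Mvd, Insig2, Sqle and Sc5d had adjusted p between 0.0571 and 0.144.

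Other differences with AE1-329 alone were as large without passing. Idi1 read 9.60, 9.59 and 9.59, below all 3 vehicle arrays (-0.40 ± 0.17, adjusted p = 0.197). Cyp51, lanosterol demethylase, read 9.85, 9.66 and 9.74 against 10.40, 9.86 and 9.96 (-0.32 ± 0.12, adjusted p = 0.108), and passed with the litter as a block (0.0206). Fasn, fatty acid synthase, differed by -0.30 ± 0.10 (adjusted p = 0.0704) and Dhcr7 by -0.29 ± 0.11 (0.129). Leaving out vehicle replicate 1 made Dhcr7 (-0.45, adjusted p = 0.00095) and Fasn (-0.40, adjusted p = 0.0147) pass, and leaving out vehicle replicate 2 made Idi1 (-0.57, 0.0424) and Cyp51 (-0.43, 0.0315) pass. Without vehicle replicate 3 Ebp, a sterol isomerase gene, passed as higher (0.26, 0.0455).

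The third comparison asked what AE1-329 did in cells that also received Aβ42, and here most of the genes that passed were higher. Of the 31 genes 10 rose, 1 fell and 20 did not pass, so that 35.5% were called where 11% of all genes were, with 5.99% higher and 5.04% lower. The median change was 0.211, beside -0.018 for all genes. The value was higher with AE1-329 in all 3 litters for 26 of the 31 genes (83.9%, against 23.1% of all genes), and groups did not overlap for 22 of the 31, against 32% of all genes. By role, 3 of 7 genes of the mevalonate arm rose, 4 of 10 of the sterol arm, 1 of 6 of SREBP control and sterol transfer, and 2 of 8 of the fatty acid branch.

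Mvd changed most. It read 9.09, 8.99 and 8.88 with Aβ42 alone and 9.53, 9.73 and 9.61 with AE1-329 added (0.64 ± 0.08, 1.56-fold, adjusted p = 0.000124). All 3 arrays with both agents lay above every other array of the study for this gene. Hmgcs1 went from 10.64, 10.55 and 10.43 to 10.989, 10.998 and 10.967 (0.44 ± 0.06, 1.36-fold, adjusted p = 0.000186). Mvk rose by 0.24 ± 0.07 (adjusted p = 0.0410), from 9.12, 9.08 and 9.05 to 9.27, 9.34 and 9.36, which lies within the range of the vehicle arrays, 9.12 to 9.36. Pmvk, Idi1, Fdps and Fdft1 differed by 0.15 to 0.27 and did not pass. The second probe set of Fdft1 gave 0.30 (adjusted p = 0.0235 over all probe sets), whereas the one used here gave 0.20 (0.200 on that scale).

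In the sterol arm, Hsd17b7, a sterol ketone reductase, read 10.05, 9.91 and 9.82 with Aβ42 and 10.45, 10.39 and 10.41 with both (0.49 ± 0.06, 1.41-fold, adjusted p = 0.000261). Msmo1, the methylsterol monooxygenase, rose by 0.31 ± 0.06 (adjusted p = 0.00235), from 11.40, 11.35 and 11.29 to 11.58, 11.70 and 11.68. Nsdhl, which acts in the same demethylation step, rose by 0.25 ± 0.06 (adjusted p = 0.0214), and Sqle by 0.23 ± 0.06 (0.0298). The groups did not overlap for any of these 4. Lss, Cyp51 and Tm7sf2 differed by 0.19 to 0.28 without passing, and Ebp (0.07 ± 0.09), Sc5d (0.04 ± 0.06) and Dhcr7 (-0.04 ± 0.11) differed by less. For Dhcr7 the 95% interval ran from -0.27 to 0.20.

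**Figure D2:**
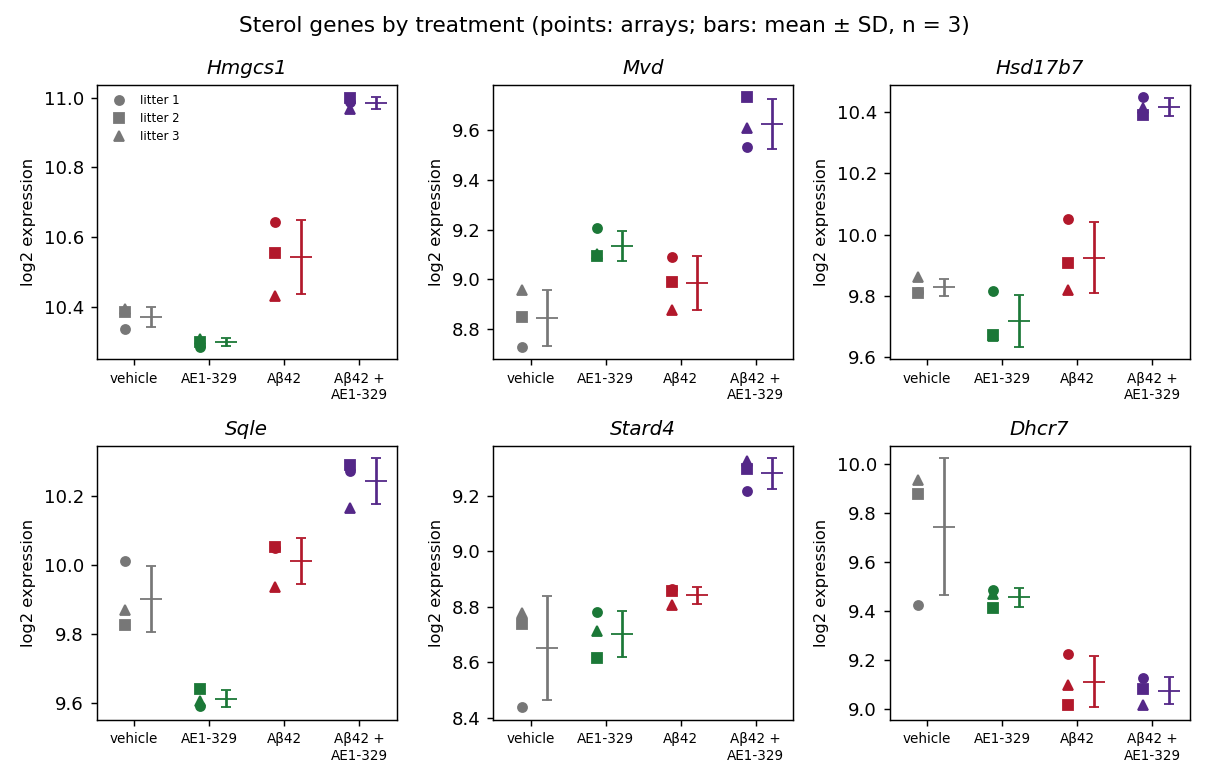
Log2 expression of 6 genes is plotted for every array, with a marker for each litter, and the bar beside the points gives the mean ± SD of 3 arrays. The arrays with both agents lie above all others for Hmgcs1, Mvd, Hsd17b7, Sqle and Stard4, whereas for Dhcr7 both groups with Aβ42 lie below the groups without it.

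Stard4 went from 8.86, 8.86 and 8.81 to 9.22, 9.30 and 9.33 (0.44 ± 0.08, adjusted p = 0.00340). Scap, the escort of SREBPs, moved the other way, from 10.10, 10.06 and 10.12 to 9.92, 9.89 and 9.86 (-0.20 ± 0.06, adjusted p = 0.0469). Its groups did not overlap, yet the call ended in 10 of 19 alternatives, among them leaving out any 1 array of AE1-329 alone, Aβ42 alone or the combined treatment (adjusted p = 0.0642 to 0.158). Srebf2 (0.07 ± 0.07), Srebf1 (0.15 ± 0.10) and Insig1 (0.17 ± 0.06, adjusted p = 0.134) did not pass, and neither did Insig2 (0.20 ± 0.08, 0.159), which passed with the litter as a block (0.0416).

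Several calls of this comparison were close to the threshold, and the count of 11 fell to 6 without replicate 1 of the combined treatment or replicate 3 of Aβ42 alone. It fell to 7 without replicate 2 of either group. Mvk lost its call without any 1 of the 6 arrays compared or without replicate 2 of AE1-329 alone (adjusted p = 0.0601 to 0.141). Sqle lost it without any 1 of those 6 except replicate 3 of the combined treatment (0.0560 to 0.135), Nsdhl once replicate 1 or 3 of the combined treatment was left out, or 2 or 3 of Aβ42 alone (0.0680 to 0.106), and Fads1 once replicate 1 or 2 of the combined treatment was left out, or 3 of Aβ42 alone (0.0835 to 0.113). Without vehicle replicate 1, which enters this comparison only through the shared estimate of the spread, 16 genes rose and 1 fell. Those gained were Idi1, Fdft1, Lss, Cyp51, Tm7sf2 and Srebf1 (adjusted p = 0.00599 to 0.0464). With only the 6 arrays compared in the fit, also 16 rose and 1 fell. Insig1 passed without replicate 1 of Aβ42 alone (0.0359), and with the litter as a block Cyp51 (0.0393) passed too.

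The fourth comparison asked what Aβ42 did in cells that also received AE1-329. Of the 31 genes 15 rose, 2 fell and 14 did not pass, so that 54.8% were called where 22% of all genes were, with 9.77% higher and 12.2% lower. Groups did not overlap for 22 of the 31, against 40.1% of all genes. The median change was 0.219, beside 0.011 for all genes. In the mevalonate arm 5 of 7 rose and in the sterol arm 6 of 10. Hmgcs1 rose by 0.69 ± 0.06 (1.61-fold, adjusted p = 9.03e-07) from 10.29, 10.30 and 10.31, with differences of 0.70, 0.70 and 0.66 in the 3 litters. Idi1 rose by 0.73 ± 0.17 (adjusted p = 0.00670), and its litters were as close, at 0.735, 0.721 and 0.747.

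Hsd17b7 (0.70 ± 0.06, adjusted p = 3.32e-06), Sqle (0.63 ± 0.06, 5.41e-06), Cyp51 (0.62 ± 0.12, 0.00139) and Msmo1 (0.45 ± 0.06, 4.22e-05) rose as well. Sc5d (0.44 ± 0.06, 6.26e-05), Lss, which closes the sterol rings (0.35 ± 0.08, 0.00830), Mvd (0.49 ± 0.08, 0.000355), Fdft1 (0.30 ± 0.08, 0.0111) and Fdps, farnesyl pyrophosphate synthase (0.36 ± 0.09, 0.0121), completed the sterol genes that rose. Insig1 (0.60 ± 0.06, 1.05e-05), Stard4 (0.58 ± 0.08, 0.000153), Srebf2 (0.41 ± 0.07, 0.000775) and Fasn (0.47 ± 0.10, 0.00277) rose too. Dhcr7 fell by 0.38 ± 0.11 (adjusted p = 0.0223), from 9.48, 9.41 and 9.47 to 9.12, 9.08 and 9.01, and Fads1 fell by 0.47 ± 0.06 (8.88e-05). The call of Dhcr7 ended once replicate 2 or 3 of the combined treatment was left out, or 1 or 3 of AE1-329 alone (0.0568 to 0.0783), and that of Fdps without replicate 2 of the combined treatment (0.0573). Mvk, Pmvk, Tm7sf2, Nsdhl and Ebp of the sterol genes did not pass (-0.18 to 0.09). Without vehicle replicate 1 the count was 20, with 17 higher and 3 lower. Tm7sf2 then passed as lower (-0.14, 0.0494), and Srebf1 (0.22, 0.00328) and Acly (0.14, 0.0491) as higher.

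The interaction asks whether the change with AE1-329 differed between cells with and without Aβ42. Of the 31 genes 5 passed, all with a more positive change in the presence of Aβ42 (16.1%, against 1.95% of all genes, with 1.03% in that direction and 0.918% in the other). Hsd17b7 differed by 0.60 ± 0.09 (adjusted p = 0.00363), Hmgcs1 by 0.52 ± 0.08 (0.00371), Sqle by 0.52 ± 0.09 (0.00689), Msmo1 by 0.38 ± 0.08 (0.0237) and Scd2, a stearoyl-CoA desaturase, by 0.52 ± 0.12 (0.0460). The difference was positive in all 3 litters for each of them, in the same arrays that gave the calls. For Hmgcs1 it was 0.40, 0.53 and 0.62. With AE1-329 alone Hmgcs1, Hsd17b7, Msmo1 and Scd2 had differed from vehicle by -0.11 to -0.05 without passing, and Sqle had fallen.

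Over the 31 genes the median interaction was 0.232, beside -0.002 for all genes. The difference was positive in all 3 litters for 14 of the 31 (45.2%, against 15.6% of all genes). Cyp51 (0.61 ± 0.16, adjusted p = 0.0949) passed with the litter as a block (0.0120). Mvd, which rose with AE1-329 in both settings, differed by 0.35 ± 0.11 (0.165), and Insig1 by 0.33 ± 0.09 (0.102). The call of Scd2 ended in 12 of 18 alternatives, among them leaving out any array except vehicle replicate 3 (adjusted p = 0.0532 to 0.123). That of Msmo1 ended without replicates 2 or 3 of Aβ42 alone, of AE1-329 alone or of the combined treatment (0.0674 to 0.0781). Without vehicle replicate 1 the count was 10, all positive. Idi1 (0.38, adjusted p = 0.0319), Fdps (0.38, 0.0475), Lss (0.43, 0.0179), Cyp51 (0.44, 0.0465), Dhcr7 (0.41, 0.0281) and Stard4 (0.50, 0.00630) were gained and Scd2 was lost. Cyp51 passed also without vehicle replicate 2 (0.0352), and Insig1 without replicate 1 of Aβ42 alone (0.0377).

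**Figure D3:**
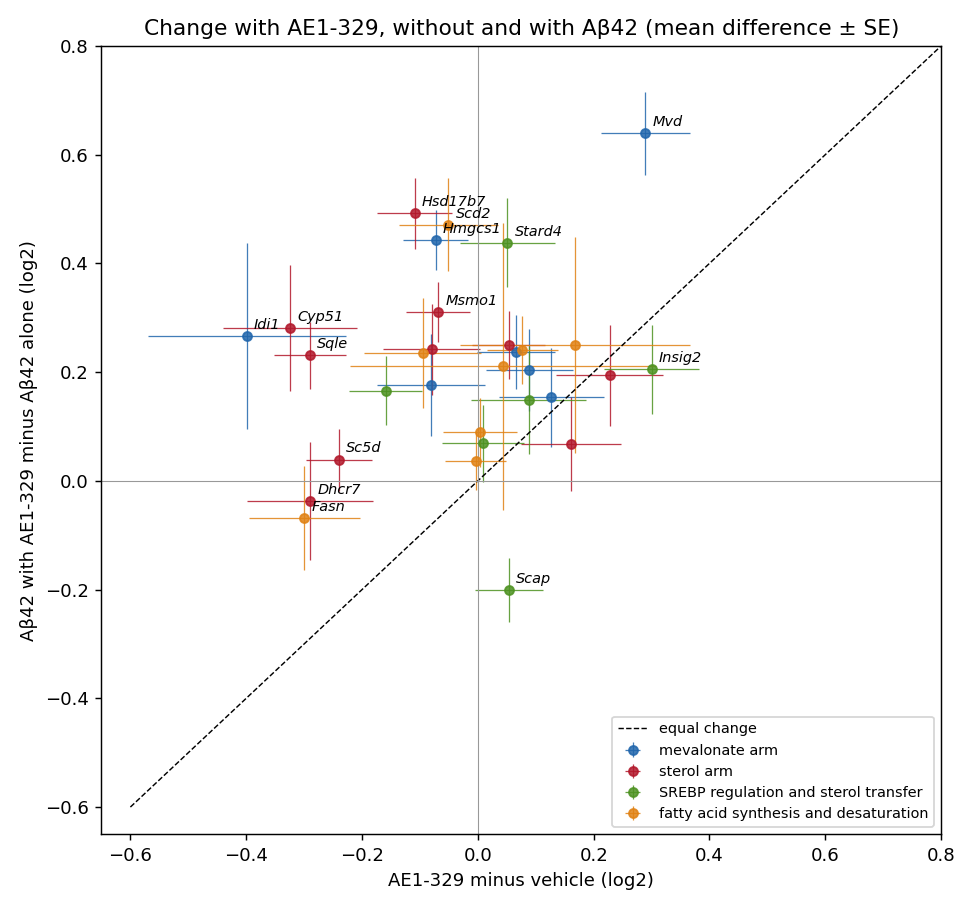
Each point is 1 of the 31 genes, coloured by role, with the log2 change with AE1-329 alone on the horizontal axis and with AE1-329 added to Aβ42 on the vertical axis, and bars of ± SE. The dashed line marks equal change. Hsd17b7, Hmgcs1, Sqle, Msmo1 and Scd2, whose interaction passed, lie above the line, and Scap lies below it.

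In the fatty acid branch 3 of 8 genes fell with Aβ42 alone, all of them in lengthening or desaturation. Fads1, a desaturase that makes polyunsaturated fatty acids, read 11.26, 11.22 and 11.16 with vehicle and 10.63, 10.66 and 10.46 with Aβ42 (-0.63 ± 0.06, 1.55-fold lower, adjusted p = 4.80e-06). With AE1-329 added it read 10.84, 10.88 and 10.75, which was higher than with Aβ42 alone (0.24 ± 0.06, adjusted p = 0.0236) and below every array without Aβ42. Scd2 fell with Aβ42 from 11.66, 11.55 and 11.40 to 11.04, 11.01 and 10.78 (-0.59 ± 0.09, adjusted p = 0.000155). With both agents it read 11.44, 11.47 and 11.34, a rise of 0.47 ± 0.09 over Aβ42 alone (adjusted p = 0.00276). Against AE1-329 alone the difference was -0.07 ± 0.09, with a 95% interval from -0.25 to 0.12.

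Elovl6, which lengthens palmitate, fell with Aβ42 from 8.72, 8.70 and 8.37 to 8.03, 8.08 and 7.96 (-0.57 ± 0.10, adjusted p = 0.000788). Adding AE1-329 gave 8.25, 8.41 and 8.12, a difference of 0.23 ± 0.10 that did not pass (adjusted p = 0.196) and did with the litter as a block (0.0340). In the presence of AE1-329 the difference with Aβ42 was -0.24 ± 0.10 (0.123), which passed with that block (0.0170) and without vehicle replicate 3 (0.0491). Fasn rose when Aβ42 was added to AE1-329, as given above, and differed by 0.24 ± 0.10 with Aβ42 alone (adjusted p = 0.0961). The difference between those changes did not pass (0.23 ± 0.14, adjusted p = 0.660). Acaca, acetyl-CoA carboxylase, and Acly, which makes cytosolic acetyl-CoA, did not pass in any of the 5 comparisons, with differences between -0.095 and 0.135.

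Scd1 and Fads2 varied widely between litters in all 4 groups, with SDs of 0.274 to 0.314 for Scd1 and 0.320 to 0.464 for Fads2. Fads2 read 10.22, 10.51 and 9.70 in litters 1, 2 and 3 with vehicle, 10.27, 10.60 and 9.69 with AE1-329, 9.95, 10.29 and 9.51 with Aβ42, and 10.15, 10.44 and 9.80 with both. Litter 2 was the highest and litter 3 the lowest in all 4 groups. The change with Aβ42 was -0.23 ± 0.26 (adjusted p = 0.615), yet it was -0.27, -0.22 and -0.19 within the 3 litters and passed with the litter as a block (0.0113). With AE1-329 added to Aβ42 the litters gave 0.20, 0.14 and 0.28, which also passed with the block (0.0325). Scd1 was lowest in litter 3 of every group, and its change with Aβ42, -0.35 ± 0.20 (adjusted p = 0.244), passed with the block (0.0167), at -0.60, -0.07 and -0.38 within the litters.

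**Figure D4:**
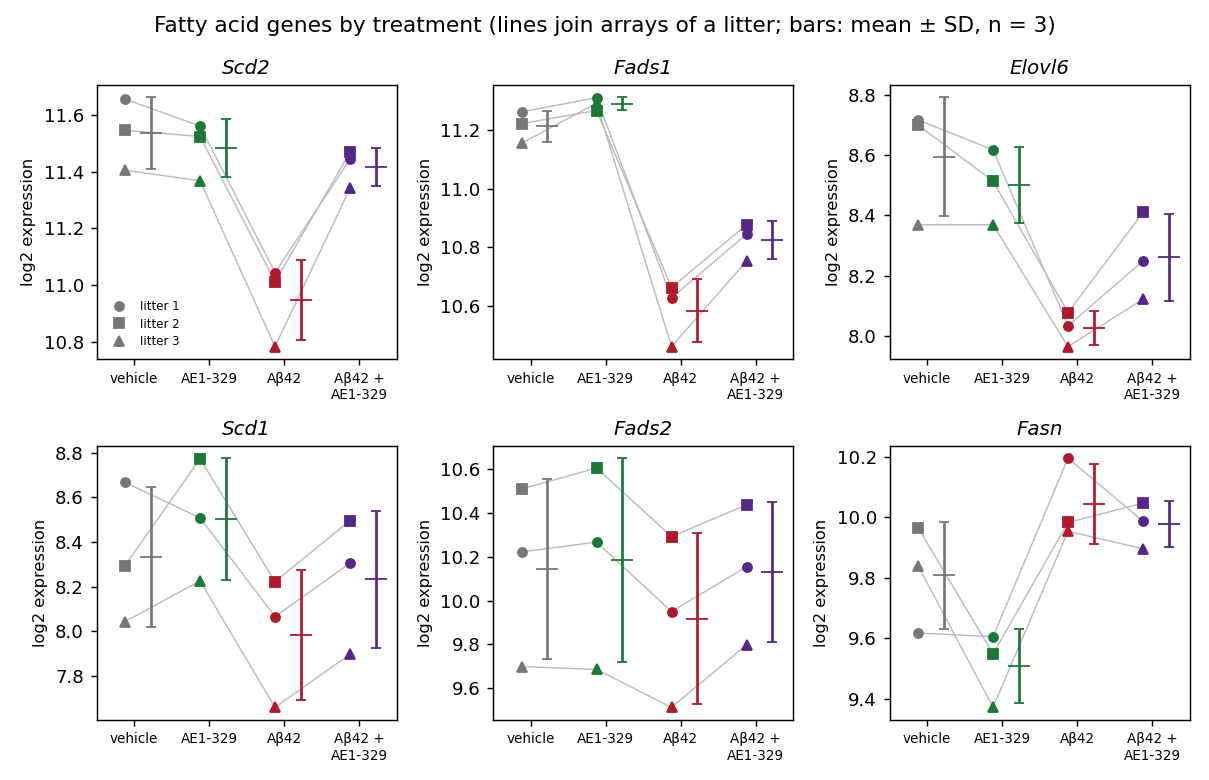
Log2 expression of 6 genes of the fatty acid branch is plotted for every array, with grey lines joining the arrays of a litter and bars of mean ± SD of 3 arrays. Scd2, Fads1 and Elovl6 are lower with Aβ42 alone than with vehicle, and for Fads2 the litters keep their order in all 4 groups, with litter 2 between 10.29 and 10.60 and litter 3 between 9.51 and 9.80.

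Arrays of the same number, read as a litter, also resembled each other on average in how the 31 genes departed from the group means. For each of 18 pairs of arrays of a litter under different treatments, the departures of the 31 genes from their group means were correlated. The average r was 0.565, from 0.0826 to 0.869, beside 0.326 when all genes were used. These correlations are across genes that share arrays and are given as a description. No label ties each array to a litter. A litter cannot be told apart here from any other step that arrays of the same number shared. Across the 12 arrays Hmgcs1 followed Hsd17b7 (r = 0.98) and Msmo1 (r = 0.96), and Dhcr7 ran against Fdft1 (r = -0.82). These values carry the treatments as well as the litters. Taken on departures from the group means, the same pairs gave r = 0.69, 0.29 and -0.61. The pairs named were among the more extreme across the 12 arrays. On departures, pairs of sterol genes went both ways, such as -0.92 for Pmvk with Sqle and 0.94 for Dhcr7 with Tm7sf2.

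A further list of 60 genes around the pathway had 52 measured members. With Aβ42 alone 9 rose, 10 fell and 33 did not pass (36.5% called, against 25.6% of all genes, with 10.7% higher and 14.8% lower). Lpin1, a phosphatidate phosphatase and SREBP-related regulator, fell by 2.33 ± 0.08, and Mid1ip1, which activates acetyl-CoA carboxylase, fell by 0.57 ± 0.06. Acsl5, an acyl-CoA synthetase gene, rose by 0.97 ± 0.07, and Rnf145, a sterol-responsive ubiquitin ligase gene, rose by 0.69 ± 0.05. With AE1-329 alone 2 of the 52 rose and 3 fell (9.62% called, near the 10.2% of all genes), with Lpin1 (0.475 ± 0.0773) and Acsl4 (0.215 ± 0.0572) higher and Hacd2 (-0.40 ± 0.07) and Tmem97 (-0.35 ± 0.07) lower.

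When AE1-329 was added to Aβ42, 4 of the 52 rose and 4 fell (15.4% called, against 11% of all genes), and none of the 13 on the sterol side passed in limma, with 3 of them at an unadjusted p under 0.05. Acsl4 rose by 0.67 ± 0.06, Lpin1 rose by 0.50 ± 0.08, Mecr, of mitochondrial fatty acid synthesis, fell by 0.36 ± 0.08, and Hacd3 fell by 0.29 ± 0.07. When Aβ42 was added to AE1-329, 9 rose and 9 fell (34.6% called, against 22% of all genes), led by Acsl4 (0.89 ± 0.06) and Acsl5 (0.91 ± 0.07) upward and by Lpin1 (-2.31 ± 0.08) and the oxysterol-forming Cyp27a1 (-1.08 ± 0.13) downward. The interaction passed for 1 of the 52, Acsl4 (0.45 ± 0.08, adjusted p = 0.0106), a share of 1.92% that is near the 1.95% of all genes.

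Each gene was read from its brightest probe set on average, and all 31 lay above the median gene, so that none was lost to a filter on low values. Idi1, Fdft1 and Acaca had a second probe set with 1 symbol. For Idi1 both gave nearly the same change when Aβ42 was added to AE1-329 (0.72 and 0.73). For Acaca neither passed in any comparison.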

How the data were processed

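RNA of 12 microglial cultures was hybridised to 1-colour arrays, and the authors deposited log2 expression for each probe set. The submitters' processing notes name RMA and Partek 6.5. Their settings, any filter and the genome build were not given in the sources used here. Of 35556 probe sets, 21789 carry 1 gene symbol in the platform annotation, and the one with the highest mean stood for each of 19938 genes. Symbols were matched to the RefSeq table for 21698 probe sets. A model of group means over all 12 arrays was fitted in limma (version 3.58.1, under R 4.3.3) by lmFit, then eBayes, which gave 8 residual and 4.54 prior degrees of freedom, with Benjamini-Hochberg adjustment over all genes in each of 5 comparisons and no filter on low values. The fit was tested on simulated data.

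The members and the lists of other pathway genes and cell type markers were chosen with earlier results of these data known. All members are accounted for, and of the other pathway genes up to 2 in each direction with the smallest p were named. The design text names 3 litters as replicates. As a check of that pairing, departures from the group means were correlated between arrays. The average r was 0.326 for 18 same-numbered pairs (0.00435 to 0.538, 17 above 0.1) and -0.162 for 36 differently numbered ones. Each of the 12 arrays was closest to its own number. Departures cancel out within each group of 3 arrays, so the negative average follows from the positive one and is not separate support. The main design has no litter block. Alternatives were the litter as a replicate block, all probe sets, their mean, genes above the median level, quantile normalization, a trended robust prior, only the groups compared, and leaving out each array.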

Additional observations from a re-analysis of the deposited data

Results flagged for a closer look

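For 5 genes the change with AE1-329 differed between cells with and without Aβ42 by a test of the difference itself (limma interaction, log2). The difference was 0.60 for Hsd17b7, 0.52 for Hmgcs1, 0.52 for Sqle, 0.38 for Msmo1 and 0.52 for Scd2, each positive in 3 of 3 litters. The litters are the arrays that gave these calls, so their signs are not separate support. The call of Scd2 ended in 12 of 18 alternatives and that of Msmo1 in 7 of 18. Groups of 3 arrays were not tested for outlying values.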

How the results depend on the processing

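Of 44 calls of these genes over the 5 comparisons, 30 stayed past the threshold in every alternative run, and 14 were lost in at least 1. All 44 kept their sign, which is little support. Several alternatives use the same group means, so the sign could not change in them. With the litter as a replicate block no call was lost and 10 were gained, each given in the report, and the interaction was called for 677 of all genes in place of 389. With all probe sets tested, members called were 2 in place of 4 for AE1-329 alone and 3 in place of 5 for the interaction, where 230 of all genes were called. With only the groups compared, AE1-329 alone called 970 genes in place of 2026 and 0 members, and AE1-329 added to Aβ42 called 17 members in place of 11. The cause was not tested. Leaving out 1 array at a time called 6 to 12 members and 4210 to 5698 of all genes for Aβ42 alone, 1 to 5 members and 1410 to 2345 of all genes for AE1-329 alone. The same ranges were 6 to 17 members and 1491 to 3093 of all genes for AE1-329 added to Aβ42, 15 to 20 members and 3507 to 5406 of all genes for Aβ42 added to AE1-329 and 3 to 10 members and 246 to 557 of all genes for the interaction. The number of arrays limits the precision.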
